A study of Schizosaccharomyces pombe with 24 samples.

Results

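The genes described here encode the proteasome of fission yeast, Schizosaccharomyces pombe, together with its assembly factors and its PI31-type inhibitor. They were taken as every protein-coding row of the deposited tables whose product description contains the word proteasome, apart from the regulator gene fub2, which left 45 genes of 5126 protein-coding rows. By their descriptions 14 encode the core particle, 21 the regulatory particle and 10 assembly factors, an inhibitor or other associated factors. The averages of all 45 genes were at or above 100 normalized reads in each of the 8 groups, from 377 for fub1 in pho7Δ at 0 h to 20062 for rpn2 in WT at 0 h, so that no gene of the set was lost to a filter on low values.

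The proteasome is the protease that degrades proteins marked with ubiquitin in the nucleus and cytoplasm of eukaryotic cells. Its core particle is a barrel of stacked rings in which alpha subunits form the gated ends and beta subunits the chamber where peptide bonds are cut. The regulatory particle caps the barrel. In it, ubiquitin receptors and the deubiquitinase Rpn11 process the substrate, and a ring of ATPases unfolds the protein and threads it inward. Dedicated chaperones build both particles and are absent from the finished enzyme. Cells that stop growing can lower, store or degrade their proteasomes, and the protease supplies amino acids when nutrients run short.

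Poly(A)+ RNA had been sequenced in 24 libraries, with 3 biological replicates in each of 8 groups. The WT group came from strain AGP72 (h-) in log phase in the rich medium YES, and is called WT at 0 h. The pho7Δ strain AGP83 (h- pho7Δ::natMX) lacks the transcription factor Pho7, which drives phosphate-responsive genes. It was sampled in log phase in YES (0 h) and at 6 times in ePMGT(-PO4), a defined medium without phosphate, the first at 4, 8 and 12 h and the others at 24, 36 and 48 h. No starved WT group and no group in phosphate-replete ePMGT is among these samples, so that starvation and the change of medium cannot be told apart in the course, nor can an effect of Pho7 on the starved cells be measured. The question addressed here is how the proteasome genes responded, first to loss of Pho7 with phosphate present and then to starvation of the mutant.

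Each level below is a group average as deposited, which the authors took over 3 libraries after normalizing their read counts. Values per library were not analysed here, so no level has an SD, no difference has a replicate check, and no test was run. A gene is called 2-fold higher or lower where the log2 ratio of the averages, after adding 1 to each, reached a 2-fold difference and the higher average was at least 100. In the starvation course it had to do so with 1 sign at 2 or more consecutive times. The averages were scaled between libraries by size factors, so that a change in total RNA per cell would not appear in them. The pho7 gene itself averaged 3147 in WT, 833 in pho7Δ at 0 h and 334 at 48 h, which is 26.5% and 10.6% of WT. The sums of all averages lay 0.14 higher on the log2 scale in pho7Δ at 0 h than in WT and 0.17 higher at 4 h, and between 0.02 and 0.12 higher from 8 h on, which bears on log2 ratios of that size.

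Loss of Pho7 with phosphate present left the proteasome genes within 2-fold of WT. None of the 45 was called 2-fold higher and none 2-fold lower at 0 h, whereas 7.86% of the 4862 protein-coding genes compared were 2-fold higher and 7.36% were 2-fold lower. The median log2 ratio was 0.20 for the 45 genes and 0.10 for all protein-coding genes, and the SD of the ratios was 0.35 among the proteasome genes and 0.89 among all. Of the 45 genes 31 had a higher average in pho7Δ than in WT and 14 a lower one, or 27 and 18 where the groups were scaled to equal sums. Of the 4943 protein-coding genes at or above 100 in any group, 2828 were higher and 2115 lower, as deposited.

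The medians of the groups of genes differed in this comparison, which was not tested, while the ratios of their genes overlapped. The quartiles were 0.06 and 0.29 for the core particle and 0.16 and 0.39 for the regulatory particle. The core particle had a median log2 ratio of 0.18 and the regulatory particle one of 0.29, with 11 of 14 and 18 of 21 genes above 0, or 9 and 16 with equal sums, where the core median was 0.04. The assembly factors had a median of -0.25, with 8 of 10 genes below 0. Of the 4943 protein-coding genes 2828 were above 0 and 2115 below. The largest ratio was that of rpn7, a lid subunit of the regulatory particle, which averaged 2556 in WT and 4586 in pho7Δ, a log2 ratio of 0.84. The smallest was that of rpn2, the large scaffold subunit of the base that holds the ubiquitin receptor Rpn13. It averaged 20062 in WT and 11582 in pho7Δ, a ratio of -0.79. The inhibitor gene fub1 was at -0.67 and the chaperone gene SPCC24B10.16c, described as Pac4, at -0.64. Thus the members farthest from WT were single subunits and factors, and they lay on both sides.

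**Figure D1:**
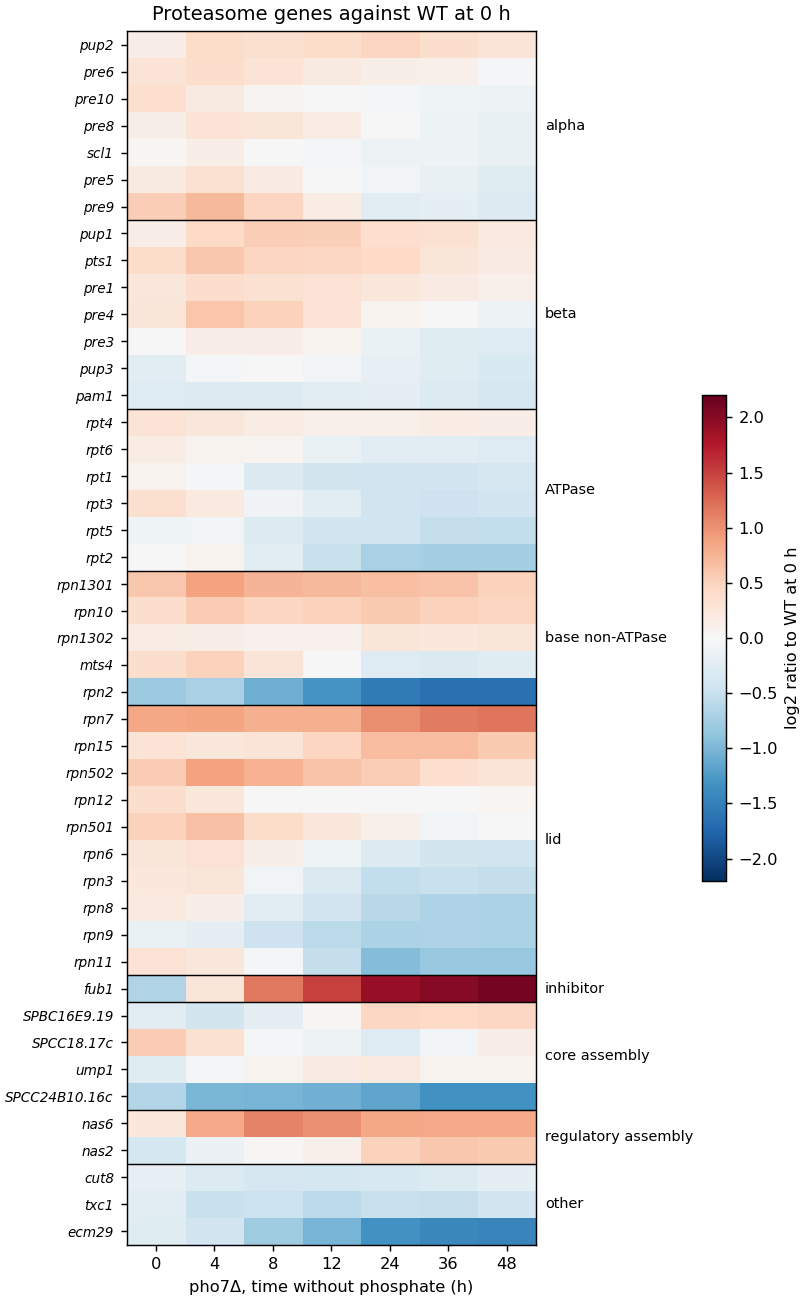
Log2 ratio of each of the 45 proteasome genes in pho7Δ to WT at 0 h, in rows grouped by role, at 7 times without phosphate (columns, h; 0 is growth with phosphate). Red is higher and blue lower than WT; at 48 h fub1 was 4.30-fold above and rpn2 3.13-fold below WT, while the core particle rows (alpha and beta) stay pale.

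The core particle genes stayed within 2-fold of WT during starvation. None of the 14 was called 2-fold higher or lower than WT, or than pho7Δ at 0 h, at 2 or more consecutive times. Among all protein-coding genes 20.4% were higher and 19.8% were lower than WT by this rule, and 14.3% were higher and 15.4% lower than pho7Δ at 0 h. The median log2 ratio of the core genes to WT was 0.18 at 0 h, 0.36 at 4 h, 0.28 at 8 h and 0.16 at 12 h. It then lay at -0.02 (0.04 when centred on the median coding gene), -0.10 and -0.14 at 24, 36 and 48 h, when the median over all protein-coding genes was between -0.06 and -0.08. In the averages as deposited, the highest of the course fell at 4 h for 8 of the 14 genes and the lowest at 48 h for 12 of them. From 36 to 48 h each of the 14 had a lower deposited average, by 0.01 to 0.15 on the log2 scale. The summed averages of all rows also fell, from 0.047 to 0.015 above WT on that scale. With equal sums pre10 and pre3 would therefore not be lower at 48 h than at 36 h.

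The 7 alpha ring genes were each above WT at 0 h and at 4 h, except that with equal sums scl1 was below WT at both times and pre8 at 0 h. The widest course among them was that of pre9, which encodes the alpha 3 subunit of the gate. Its averages were 3337 in WT and 4875, 5457, 4608, 3726, 2848, 2862 and 2706 in pho7Δ from 0 to 48 h, so that it was above WT up to 12 h and below it from 24 h on. At 48 h its log2 ratio to pho7Δ at 0 h was -0.85. The alpha 5 gene pup2 had another course, with 3531 in WT and 3898, 4689, 4495, 4674, 4913, 4617 and 4296 in pho7Δ. It was the only alpha gene above WT at 48 h, at 0.28, except that pre6 was also above WT when centred on the median coding gene. The remaining alpha genes pre5, pre6, pre8, pre10 and scl1 lay between -0.27 and -0.04 at 48 h.

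The 3 beta subunits that carry the proteolytic active sites are beta 1, beta 2 and beta 5. The beta 2 gene pup1 averaged 3607 in WT and 4003, 4867, 5228, 5200, 4677, 4533 and 4180 in pho7Δ, above WT throughout. Likewise the beta 5 gene pts1 averaged 3518 in WT and 4628, 5338, 4873, 4819, 4778, 4212 and 4001 in pho7Δ. The beta 1 gene pre3 averaged 3796 in WT and 3780, 4206, 4225, 3982, 3425, 3139 and 3115 in pho7Δ, above WT from 4 to 12 h (with equal sums at -0.02 at 4 h) and below it afterwards. The structural subunit beta 6 is encoded by pam1, which lay between -0.38 and -0.22 in the pho7Δ groups and had the lowest ratio of the core particle in all of them but that at 24 h, when pre9 was lower. The beta 7 gene pre4 had the largest beta ratio at 4 h, 0.61, and was at -0.11 at 48 h. At 48 h the 7 beta genes thus ranged from -0.38 for pam1 to 0.21 for pup1, with no active-site gene more than 0.29 from WT.

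**Figure D2:**
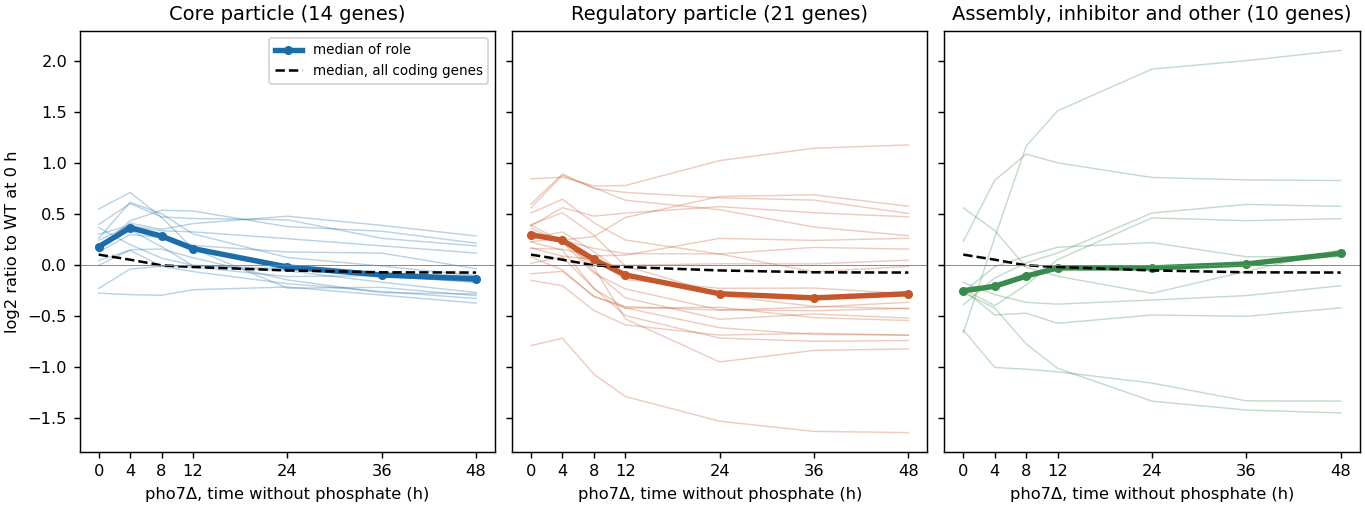
Log2 ratio to WT at 0 h (y axis) against time without phosphate in pho7Δ (x axis, h) for the 14 core particle, 21 regulatory particle and 10 assembly, inhibitor and other genes. Thin lines are single genes, thick lines with points are the median of the role, and the dashed line is the median of all protein-coding genes; the core median was highest at 4 h, at 0.36, and the regulatory median stayed at or below -0.28 from 24 h on.

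The regulatory particle genes had a lower median than the core genes at each time of starvation. Their median log2 ratio to WT was 0.29 at 0 h and 0.24 at 4 h, then 0.05, -0.10, -0.28, -0.32 and -0.28 from 8 to 48 h, the value at 8 h turning to -0.07 with equal sums. Against pho7Δ at 0 h the median at 48 h was -0.46 for the regulatory particle, -0.25 for the core particle and -0.12 for all protein-coding genes. In this comparison 17 of 21 regulatory genes were below 0, beside 2736 of 4943 protein-coding genes. One of the 21, rpn7, was called 2-fold higher than WT during starvation, and 1, rpn2, was called 2-fold lower. Against pho7Δ at 0 h none was 2-fold higher and 1, rpn11, was 2-fold lower. These shares are below the background given above for all protein-coding genes.

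The ATPase genes rpt1 to rpt6 encode the unfolding ring. Their median was 0.12 at 0 h and 0.08 at 4 h and lay between -0.43 and -0.40 from 24 h on. Beside 2524 to 2626 of 4943 protein-coding genes, 5 of 6 ATPase genes were below WT from 12 h onward. The lowest of them was rpt2, whose averages were 6198 in WT and 6262, 6527, 5283, 4388, 3765, 3683 and 3703 in pho7Δ, a log2 ratio of -0.74 at 48 h. The exception was rpt4, which averaged 4626 in WT and between 4982 and 5670 in the pho7Δ groups, above WT at every time. All 6 were below pho7Δ at 0 h at 48 h, rpt4 by 0.14 and the others by 0.45 to 0.78. The gene rpt5, at -0.55 against WT at 48 h, lies wholly opposite the RNA rpt5-antisense-1. Its average per kb was nevertheless 3527 in WT, beside a median of 3307 for the ATPase genes, and the antisense RNA averaged 197. Counting without regard to strand would have dropped reads in a shared stretch or given them to both genes, so these values are not those of such counting, provided that the overlap, taken from the annotation of ASM294v3, also held in the authors' annotation.

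Among the subunits of the base without ATPase activity, the scaffold gene rpn2 had the lowest values. Its averages were 20062 in WT and 11582, 12169, 9535, 8192, 6922, 6461 and 6408 in pho7Δ. Every pho7Δ group was thus well below WT, and from 8 h on the gene was called 2-fold lower, reaching 3.13-fold at 48 h. Of the log2 ratio of -1.65 at 48 h, -0.79 was present at 0 h, and the ratio of 48 h to 0 h within pho7Δ was -0.85, under the 2-fold limit. The other large scaffold gene, mts4, which encodes Rpn1, had 6289 in WT and 8268, 8959, 7689, 6236, 5165, 5021 and 5238 in pho7Δ. It was above WT up to 8 h, at -0.01 at 12 h and between -0.32 and -0.26 from 24 h on. The genes of the ubiquitin receptors Rpn10 and Rpn13 are rpn10, rpn1301 and rpn1302. These 3 stayed above WT at all 7 times, but with equal sums rpn1302 was at -0.01 at 4 h and -0.03 at 8 h. Of these, rpn10 averaged 2396 in WT and 3122 to 3559 in the pho7Δ groups, rpn1301 averaged 1092 and 1548 to 2026, and rpn1302 averaged 1880 and 1997 to 2252. The gene rpn10 lies for 75.8% of its exons opposite rpn10-antisense-1.

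The lid is the part of the regulatory particle that removes ubiquitin chains, and its genes spread widely. The gene of its catalytic subunit, rpn11, averaged 3752 in WT and 4685, 4462, 3682, 2597, 1937, 2096 and 2117 in pho7Δ. It was above WT up to 4 h and well below it from 12 h on, and it lay 2.42-fold below pho7Δ at 0 h at 24 h and 2.21-fold below at 48 h. Against WT its ratio at 24 h was -0.95, just inside the 2-fold limit. The structural gene rpn7 had the opposite course, with 2556 in WT and 4586, 4638, 4371, 4384, 5193, 5649 and 5776 in pho7Δ. All pho7Δ groups were above WT, and the gene was called 2-fold higher from 24 h on, or from 36 h on with equal sums, at 2.26-fold at 48 h. Most of this was present before starvation, since 48 h exceeded 0 h by 0.33 on the log2 scale. The ratio of the rpn7 to the rpn11 average was 0.681 in WT, 0.979 in pho7Δ at 0 h and 2.73 at 48 h. By the reference annotation, though by no gene of the deposited tables, 64.7% of the exons of rpn7 lie opposite another gene. By any gene of this annotation, 21 of the 45 proteasome genes lie mostly opposite another gene. Among them are also pup2, pam1, pts1, rpt4 and rpn1302.

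Among the other lid genes rpn15, which encodes the small acidic subunit also known as Dss1, averaged 2084 in WT and 2572, 2467, 2524, 2875, 3317, 3354 and 3104 in pho7Δ, above WT at every time. The genes rpn3, rpn6, rpn8 and rpn9, which encode structural subunits, lay between -0.69 and -0.43 at 48 h. Rpn8 is the inactive partner of Rpn11, and its gene averaged 4877 in WT and 5692, 5393, 4151, 3636, 3178, 3035 and 3026 in pho7Δ. The remaining gene, rpn12, returned close to WT, with 2258 in WT, 2953 in pho7Δ at 0 h and 2249 to 2330 from 12 h on.

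A pair of near-identical genes, rpn501 and rpn502, encodes the lid subunit Rpn5, and reads that fit both copies can be split or lost, so that each average is uncertain. Their summed average was 1370 in WT and 1995, 2383, 2138, 1945, 1807, 1604 and 1557 in pho7Δ, above WT in all groups. The average of rpn502 was 1.79 times that of rpn501 in WT and 1.85 to 2.42 times in the pho7Δ groups. The 2 Rpn13 genes, rpn1301 and rpn1302, differed in their courses. The ratio of rpn1302 to rpn1301 was 1.72 in WT, 1.03 at 4 h and 1.45 at 48 h.

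**Figure D3:**
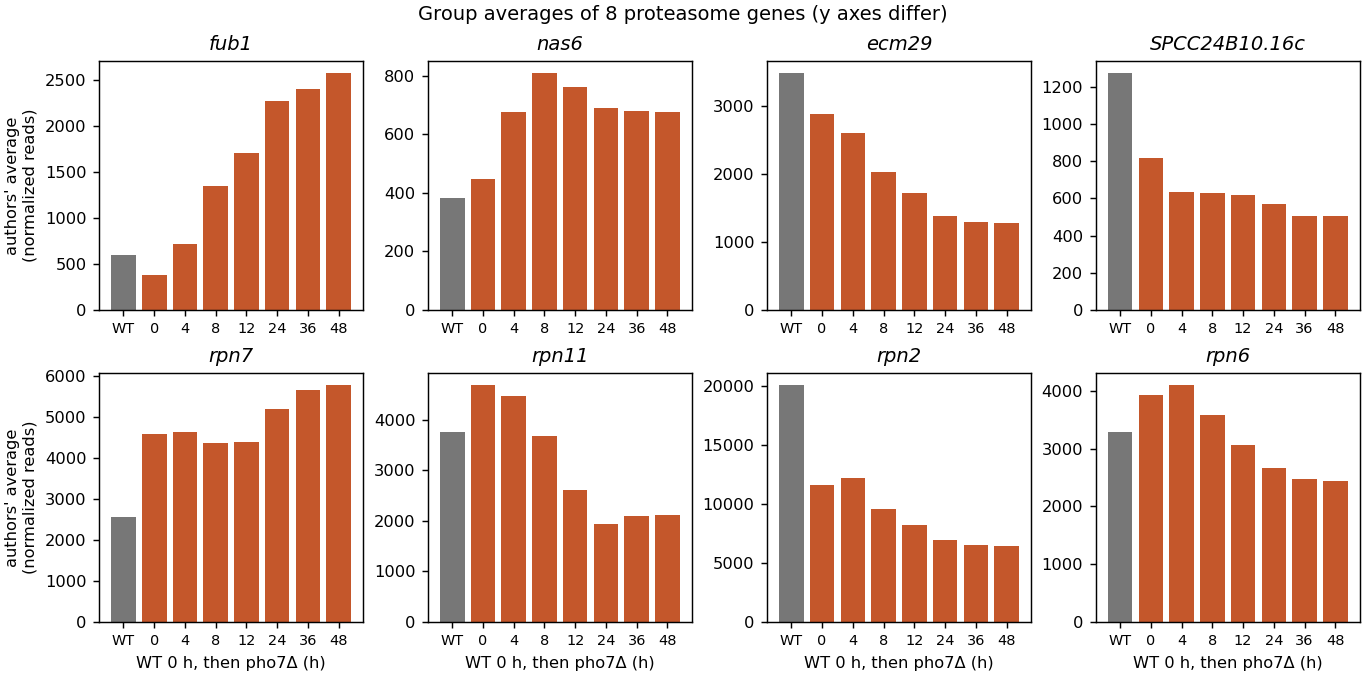
The authors' averages (normalized reads, linear y axes from 0 that differ between panels) of 8 proteasome genes in WT at 0 h (grey) and in pho7Δ at 0 to 48 h without phosphate (orange). The averages of fub1 went from 377 to 2578 along the course and those of ecm29 from 2888 to 1273, while rpn7 and rpn2 already stood apart from WT at 0 h; rpn6 is the gene most like the median of the set.

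The widest differences of the whole set were those of fub1, the gene of the PI31-type inhibitor, which in other organisms binds the core particle and blocks its active sites. Its averages were 599 in WT and 377, 721, 1344, 1709, 2270, 2404 and 2578 in pho7Δ. The value at 0 h was below WT, and every later one was above WT and above the one before it. The gene was called 2-fold higher than WT from 8 h on, at 4.30-fold at 48 h, and was 6.83-fold above pho7Δ at 0 h. Set against the median core particle average, fub1 stood at 0.163 in WT, 0.0904 in pho7Δ at 0 h and 0.765 at 48 h, as ratios of averages without correction for length. A noncoding gene, SPNCRNA.932, lies opposite 53.9% of the fub1 exons and was itself listed at averages of 1.39 to 3.76.

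The 10 assembly, inhibitor and other genes showed no common course. Their median log2 ratio to WT was -0.25, -0.21, -0.11, -0.03, -0.03, 0.01 and 0.11 from 0 to 48 h, and the SD among the 10 genes went from 0.37 at 0 h to 1.04 at 48 h. Without fub1 the median was -0.24 at 0 h and 0.08 at 48 h, and the SD 0.35 and 0.80. Against pho7Δ at 0 h the median at 48 h was 0.16. It was -0.18 without the genes of this group that lie mostly opposite another gene with a deposited average. The genes txc1 and SPCC18.17c were kept, though 77.1% and 54.6% of their exons lie opposite genes of the reference annotation. During starvation 1 of 10 was called 2-fold higher than WT (fub1) and 2 were called 2-fold lower (ecm29 and SPCC24B10.16c), beside 20.4% and 19.8% of all protein-coding genes. Against pho7Δ at 0 h, 1 was higher (fub1) and 1 was lower (ecm29), beside 14.3% and 15.4%.

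The chaperones of the regulatory particle had higher averages during starvation. The gankyrin gene nas6, whose product binds the ATPase Rpt3 during assembly, averaged 381 in WT and 447, 677, 810, 762, 690, 679 and 676 in pho7Δ. All starved groups were above both groups at 0 h, and the gene was past 2-fold against WT at 8 h only, at 2.12-fold. At 12 h it lay at the limit, with a log2 ratio of 1.00, so that a pseudocount of 0.5 or centring on the median coding gene added that time and with it a call over consecutive times, whereas with equal sums the call at 8 h was lost. The gene nas2, whose product chaperones Rpt5 in budding yeast, averaged 1010 in WT and 770, 924, 1023, 1095, 1438, 1524 and 1504 in pho7Δ. It was below WT at 0 and 4 h (with equal sums also at 8 h, at -0.10), and at 48 h it lay 1.95-fold above pho7Δ at 0 h, a difference called 2-fold with equal sums or when centred. The exons of nas2 lie for 84.5% opposite SPNCRNA.1066, listed at averages of 18.8 to 61.5.

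The chaperones of the core particle differed among themselves. The maturation factor gene ump1, whose product is enclosed in and degraded by the newly formed core, averaged 2823 in WT and 2348, 2787, 2991, 3182, 3283, 2982 and 2981 in pho7Δ, within 0.27 of WT on the log2 scale at all times. The Pac4 gene SPCC24B10.16c averaged 1276 in WT and 819, 634, 627, 616, 570, 505 and 504 in pho7Δ, all below WT and 2.53-fold lower at 48 h. It lies for 62.7% of its exons opposite the coding gene swt1, which averaged 787 in WT, 1167 in pho7Δ at 0 h and 423 at 48 h. Another predicted chaperone gene, SPBC16E9.19, averaged 1222 in WT, 926 at 4 h and 1673 at 48 h, and lies wholly opposite other genes, uvi31 over 90.4% of its exons. The gene SPCC18.17c averaged 955 in WT and 1406 in pho7Δ at 0 h, with 786 after 24 h and 1057 after 48 h.

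The gene ecm29 encodes a large protein that associates with and monitors the joined core and regulatory particles. Its averages were 3487 in WT and 2888, 2596, 2036, 1724, 1379, 1298 and 1273 in pho7Δ, each below the one before it. With equal sums ecm29 did not fall at the last step, with log2 ratios to WT of -1.472 at 36 h and -1.469 at 48 h. It was called 2-fold lower than WT from 12 h on, or from 24 h on when centred on the median coding gene, at 2.74-fold at 48 h, and 2.27-fold lower than pho7Δ at 0 h. The nuclear tether gene cut8, whose product holds proteasomes at the nuclear envelope, averaged 3798 in WT and 2907 to 3369 in the pho7Δ groups. The co-factor gene txc1 averaged 1396 in WT and 937 to 1178 in the pho7Δ groups. Both were below WT in all 7 pho7Δ groups, by less than 2-fold. The exons of cut8 lie for 70.0% opposite scs22, whose averages of 3121 to 6639 exceed those of cut8 in all but 1 group.

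At 48 h, 2 of the 45 proteasome genes were called 2-fold higher than WT and 3 were called 2-fold lower, beside 17.6% and 17.4% of all protein-coding genes. Against pho7Δ at 0 h the numbers were 1 higher and 2 lower, beside 12.4% and 13.3%. Over consecutive times they were again 2 higher and 3 lower than WT, and 1 higher and 2 lower than pho7Δ at 0 h. The share of proteasome genes past 2-fold was therefore below the background in each direction. The SD of the log2 ratios to WT among the 45 genes went from 0.35 at 0 h to 0.65 at 48 h, and among all protein-coding genes from 0.89 to 1.38. Most of the movement took place by 24 h. The median size of the step for the 45 genes was 0.07 from 24 to 36 h and 0.05 from 36 to 48 h. The largest steps were 0.22 and 0.21. Over all protein-coding genes the median size was 0.07 at both steps.

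How alike the profiles were was described by Pearson's r between the log2 ratios to WT of a gene and the median ratios of the other 44 over the 8 groups, which share 1 normalization. Of the 45 genes 28 had r above 0.5 and 11 had r below 0. The genes most like the median were rpn6 at 0.97 and pre5, pre9 and mts4 at 0.96. The genes least like it were SPBC16E9.19 at -0.95, nas2 at -0.92 and fub1 at -0.83, all assembly or inhibitor genes. Of the 11 genes below 0, 6 were among the 10 assembly, inhibitor and other genes, 4 were regulatory (rpn7, rpn10, rpn15 and rpn1302) and 1 was a core gene (pup2). Of these, cut8 at -0.007 and rpn10 at -0.019 were close to 0. The values of r were not recomputed with equal sums.

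Levels can be compared between genes only per length. The averages were divided by the exon length of the RefSeq annotation of assembly ASM294v3, which differs from the assembly used by the authors. Per kb, the 14 core genes lay close together in WT, from 2040 for pre8 to 4191 for scl1, a 2.05-fold range, with a median of 3060. The 6 ATPase genes spanned 1.54-fold. The 21 regulatory genes had a median of 2579 and spanned from 335 for rpn501 to 6232 for rpn2. In WT rpn2 was the highest of the 21, and in pho7Δ at 48 h rpn15 was the highest, at 5182. The assembly genes had a median of 609 per kb, and ump1 was the highest of them, at 2886 in WT.

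The median core level per kb was 1.19 times the median regulatory level in WT and 1.11 times in pho7Δ at 0 h. This ratio was 1.32, 1.52 and 1.38 after 4, 12 and 48 h of starvation. It was above both 0 h values at all 6 starved times. The spread among core genes per kb was 2.05-fold in WT and 2.64-fold at 24 h, when pre8 was the lowest and pup2 the highest. Together the 45 genes took 0.956% of the summed averages of all rows in WT, 0.912% in pho7Δ at 0 h and 0.789% at 48 h.

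**Figure D4:**
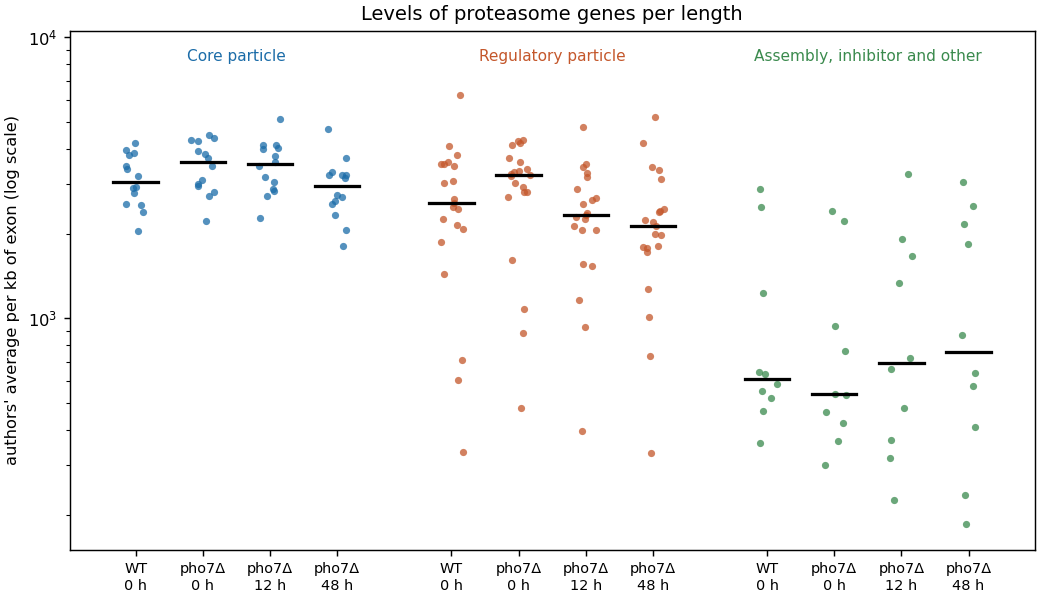
The authors' averages per kb of exon (y axis, log scale) of the core, regulatory and assembly, inhibitor and other genes in WT at 0 h and in pho7Δ at 0, 12 and 48 h; each point is 1 gene and the bar is the median. The core genes stay within a narrow band around medians of 3060 in WT and 2948 at 48 h, whereas the regulatory median was 2579 in WT and 2137 at 48 h.

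Ubiquitin marks substrates for the proteasome through activating (E1), conjugating (E2) and ligating (E3) enzymes. Of a list of 42 symbols of this pathway 40 were found as protein-coding rows, and 39 of those are not proteasome genes as defined above. During starvation 4 of the 39 were called 2-fold higher than WT and 6 were called 2-fold lower, beside 20.4% and 19.8% of all protein-coding genes. Against pho7Δ at 0 h the numbers were 3 and 4, beside 14.3% and 15.4%. Their median log2 ratio to WT was 0.06 at 0 h and -0.15 at 48 h. The E2 gene ubc8 averaged 921 in WT, 1048 in pho7Δ at 0 h and 1927 at 48 h. For ubc1, also an E2 gene, these values were 727, 1021 and 1777, and for the E3 gene pub2 they were 983, 1085 and 2586. The gene der1, of the degradation pathway at the endoplasmic reticulum, averaged 452, 703 and 1079.

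Lower averages were seen for ubp6, whose product is the deubiquitinase that docks on Rpn1 in the regulatory particle. It averaged 3036 in WT, 2976 in pho7Δ at 0 h and 1323 at 48 h, a log2 ratio of -1.17 within pho7Δ. The ubiquitin-binding gene mud1 averaged 3605, 2494 and 1574 in these groups, and rad8, the gene of an E3 ligase of DNA repair, 4563, 3290 and 1529. The gene ufd1, of the Cdc48 complex that extracts ubiquitylated proteins, was already low at 0 h, at 1229 against 6290 in WT, and stood at 1634 at 48 h. Also called 2-fold lower than WT over consecutive times were ptr3 and ubc16. In WT, pho7Δ at 0 h and pho7Δ at 48 h, ptr3 averaged 10727, 8487 and 4957, and ubc16 averaged 3711, 2206 and 1866.

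At 8 and 48 h the median of the proteasome genes lay closer to WT than that of the 130 cytoplasmic ribosomal protein genes or of the 26 genes described by the word autophagy. The ribosomal protein genes had a median log2 ratio to WT of 0.37 at 0 h, -1.48 at 8 h and -0.38 at 48 h. Of the 130, 2 were called 2-fold higher than WT over consecutive times and 40 lower, beside 20.4% and 19.8% of all protein-coding genes, and 0 were called higher than pho7Δ at 0 h and 100 lower, beside 14.3% and 15.4%. The autophagy genes had medians of -0.08, 0.59 and 0.90 at the same times, with 11 of 26 called 2-fold higher than WT and 3 called lower. At these times the medians of the proteasome genes were 0.20, 0.08 and -0.17. The autophagy median was the closer to WT at 0 h, and also at 4 h, at 0.20 against 0.24 for the proteasome genes. The differences between the lists were not tested.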

How the data were processed

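Poly(A)+ RNA of 24 libraries, 3 per group in 8 groups named by the labels, had been read in pairs from a stranded kit. Per the submitters' processing notes and the study's methods, HISAT2 2.1.0 aligned the reads to ASM294v2, SAMtools and HTSeq 0.10.0 served to count them by gene, and DESeq2 gave the size factors. The strand option of HTSeq was not given in the sources used here. The deposited averages are a signal, the authors' mean over 3 libraries of read counts divided by size factors. The 7 tables of 6987 rows also hold the authors' own comparison (an overall mean, log2 fold changes with standard errors, a test statistic, p-values and adjusted p-values), which was not used. No counts per library were analysed here, so depth per library was not analysed and the count test fixed for such data could not be run. In its place log2 ratios of averages were computed with pandas 2.3.3 and numpy 2.4.6, with a pseudocount of 1, a minimum average of 100 and a limit of 2-fold. The rules were run on simulated averages with changes set past the limit and no replicate noise in them. This gives no error rate for the calls.

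Exon lengths, names and opposite genes came from the RefSeq annotation of ASM294v3, in which all 45 genes were found. Since the assemblies differ, no coordinates or sequences are given, and promoter motifs were not analysed here. All 45 genes could be named. Those described in depth are, for each role, the 3 highest and 3 lowest at 0, 4 and 48 h, genes past 2-fold, all assembly genes, near-identical pairs and the 3 least like the median. Other genes are named only as a check of the labels, as neighbours on the opposite strand, or from the ubiquitin list. From that list, all genes called 2-fold apart from WT over consecutive times are named. The members, lists and rules were chosen with earlier results of these data known. Alternatives were another scaling, pseudocount, minimum or fold limit, and leaving out near-identical copies and genes lying mostly opposite another gene with a deposited average.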

Additional observations from a re-analysis of the deposited data

How the results depend on the processing

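No paired analysis was possible because the columns used hold 1 average per group and no value per library, and leaving out replicates was not run for the same reason. With no replicate SD, a median was taken as moved where it shifted by more than 0.1 on the log2 scale and a count where it changed by more than 1.5 times. The 8 alternatives gave 415 values. No named gene past 2-fold at 48 h changed sign where it was kept, which could not have been otherwise. The scalings shifted log2 ratios by at most 0.17, far less than a 2-fold difference. The pseudocounts 0.5 and 10 and no minimum moved none of the medians by role. They left the counts at 0 h and over consecutive times as they were, except that with a pseudocount of 0.5, and when centred on the median coding gene, 3 genes in place of 2 were higher than WT over consecutive times, nas6 being added.

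With groups scaled to equal sums, the core median was 0.037 at 0 h and 0.20 at 4 h against WT, and -0.12 at 48 h against pho7Δ at 0 h. The regulatory median was 0.15, 0.075 and -0.33, and the assembly median -0.40, -0.38 and 0.28. Centred on the median coding gene, the medians at 48 h against pho7Δ at 0 h were -0.13, -0.34 and 0.28. Under either scaling 2 genes were 2-fold higher than pho7Δ at 0 h over consecutive times. With a minimum of 1000 the assembly median at 4 h was -0.35. Without the 9 genes that are near-identical copies or lie mostly opposite another gene of the tables it was -0.018, the assembly median at 48 h against pho7Δ at 0 h was -0.18, and 1 gene was higher than WT and 0 higher than pho7Δ at 0 h over consecutive times, since fub1 is among those left out. With a limit of 1.5-fold, 2 genes were higher and 3 lower at 0 h, 6 and 7 against WT over consecutive times, and 4 and 12 against pho7Δ at 0 h. At 0 h, 1703 of 4943 protein-coding genes were past 1.5-fold against WT in either direction. Over consecutive times no share of all protein-coding genes was computed at this limit, so those counts cannot be set against a background. Each cause beyond the construction of the alternative was not tested. Depth per library was not analysed here, and the authors' standard errors were not used, so no average has an error.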

Other observations

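Antisense RNAs annotated at proteasome genes had courses of their own. The noncoding rpt5-antisense-1 averaged 197 in WT and 72.8, 127, 209, 282, 336, 325 and 403 in pho7Δ from 0 to 48 h, while rpt5 averaged 6708 in WT, 6311 at 0 h and 4592 at 48 h. Its log2 ratio was -1.42 for pho7Δ at 0 h against WT and 2.45 for 48 h against 0 h. The noncoding rpn10-antisense-1 averaged 156 in WT and 17.3 to 31.6 in the pho7Δ groups, a log2 ratio of -2.72 at 0 h. Both antisense genes share exonic sequence with a coding gene of much higher average on the other strand. The overlaps come from the annotation of ASM294v3.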
